A study of Danio rerio with 2 samples.

Results

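The genes described here encode the nuclear pore complex and the soluble machinery that carries proteins and RNA through it. They were followed in RNA recovered with a Flag-tagged zebrafish Cpeb1b protein (RNA immunoprecipitation sequencing, RIP-seq). Members were taken by gene name alone, as rows named for nucleoporins (NUP, TPR, RAE1, SEH1L, SEC13), importins (KPNA, IPO, TNPO), exportins (XPO), the Ran GTPase and its partners, and the mRNA export receptors (NXF1, NXT). The rule found 58 of 33737 gene rows, which carried 57 of 19976 distinct symbols, because RANGAP1 stood on a pair of identifiers. The rule used no measured value.

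The series has a single group, wild-type embryos that had received an injection of mRNA for Flag-cpeb1b and were collected at 16 h post-fertilization. It comprises 2 replicates, and the deposited table gives each gene as the authors' mean over them, in RPKM (reads divided by gene length in kilobases and by library size). Neither a replicate's own value nor a precipitate without the Flag protein was analysed here. Every value is therefore a level in the precipitate, not an enrichment, and abundant mRNA cannot be told apart from strongly bound mRNA. The embryos were whole, so a difference in level can also not be told apart from a difference in the number of cells that make the transcript. The Flag protein is translated from injected mRNA, with no promoter that confines it to a tissue.

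In vertebrate cells the pore is built from repeated copies of the nucleoporins, arranged as an outer ring, an inner ring, a central channel with phenylalanine-glycine repeats that form the barrier, filaments on the cytoplasmic face and a basket on the nuclear face. Import receptors bind cargo in the cytoplasm and release it in the nucleus when Ran loaded with GTP binds them, whereas exportins need that same form of Ran to hold their cargo. RanGAP1, helped by RanBP1, switches Ran to its GDP form in the cytoplasm, which sets the direction of transport. Bulk mRNA leaves by another route, through the NXF1 receptor and its NXT partner. Cytoplasmic polyadenylation element-binding proteins such as Cpeb1b bind the 3′ untranslated regions of mRNAs in the cytoplasm and regulate poly(A) tail length and translation.

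Nearly the whole group was recovered, at moderate levels. Of the 57 symbols, 54 (94.7%) reached RPKM 1, the level used here to call a transcript detected, against 49.0% of all symbols, 38.6% of all gene rows and 55.1% of the symbols that matched a protein-coding RefSeq gene. At RPKM 5 or more stood 21 members (36.8%), against 17.0% of all symbols and 19.4% of the protein-coding ones. At RPKM 10 or more stood 9 members (15.8%), against 8.34% and 9.38%. The median over all 57 members was 3.44 RPKM, with an interquartile range of 2.28 to 8.89 RPKM, and the median over all symbols was 0.954 RPKM. Among detected transcripts alone the medians lay close together, at 3.70 RPKM for the members and 3.22 RPKM for all detected symbols. The 3 members under RPKM 1 were kpna7, ipo13a and nxf1a. Summed over its rows, the group held 0.0432% of the RPKM total of the table.

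**Figure D1:**
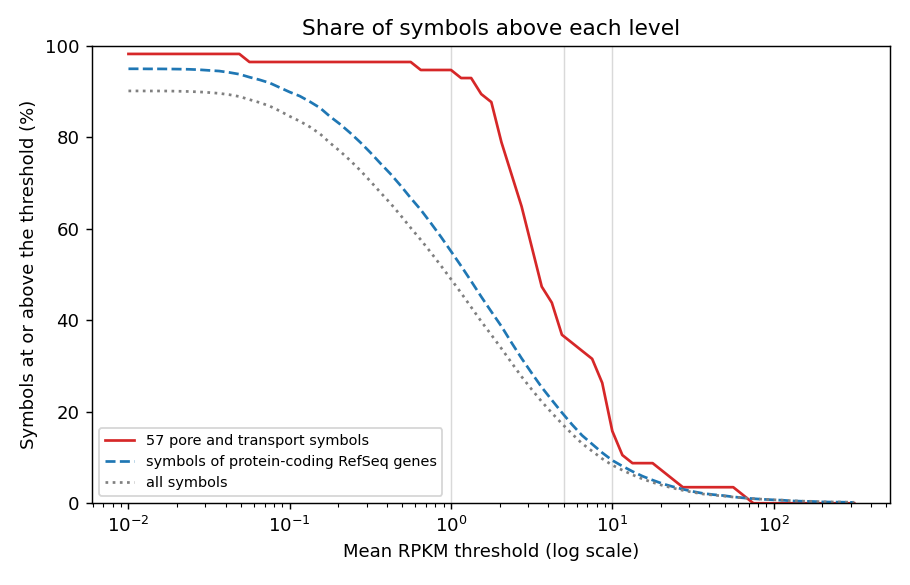
The horizontal axis is a threshold on mean RPKM (log scale) and the vertical axis the percentage of symbols at or above it, for the 57 members (solid line), the symbols of protein-coding RefSeq genes (dashed line) and all symbols (dotted line). At RPKM 1 the lines stand at 94.7%, 55.1% and 49.0%, and they draw together above RPKM 10.

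The counting error behind these levels follows from the depth. The smallest steps between low values in the table correspond to about 13.1 reads per kilobase over both libraries at RPKM 1, if the deposited value is a plain mean. For a gene model of 1 kb the Poisson error is then 27.6% at RPKM 1 and 8.73% at RPKM 10. The 95% intervals given below are exact Poisson intervals for a 1 kb model, and a longer model has a narrower one. They cover counting error only, since the spread between replicates could not be computed and PCR copies of 1 molecule could not be removed. Of 56 neighbouring pairs in the order of levels that had a value above 0 on both sides, 4 differed by more than this error. They were RAN over ranbp1, ranbp1 over IPO5, IPO13 over the higher RANGAP1 row, and kpna7 over ipo13a. The last pair rests on ipo13a, whose value corresponds to about 0.640 reads per kilobase and was rounded up to a whole read. Other neighbours in the order were not separated for models of 1 kb, and the true gene lengths were not used.

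**Figure D2:**
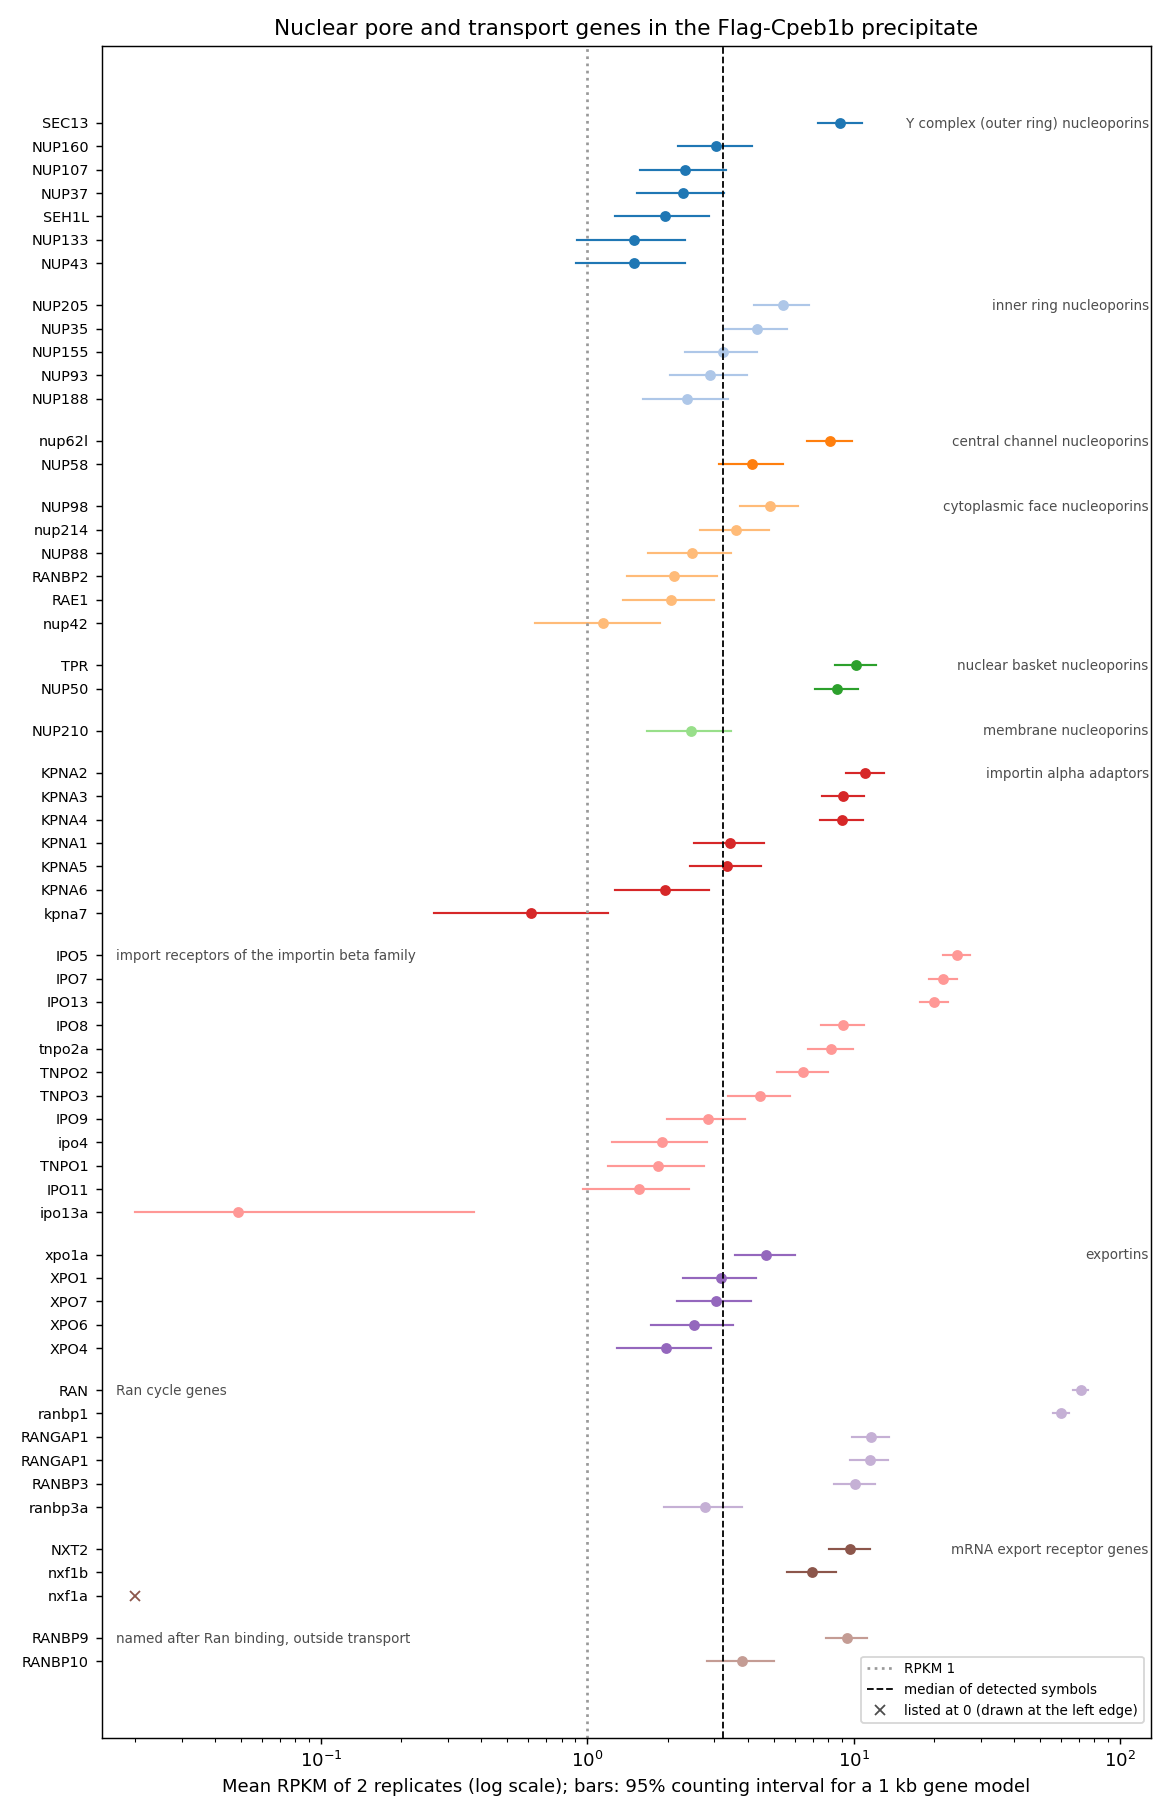
Each point is the mean RPKM (log scale) of 1 gene row over the 2 replicates, grouped by role, and each bar is its 95% counting interval for a 1 kb gene model, cut at the left edge for ipo13a. The dotted line marks RPKM 1 and the dashed line the median of detected symbols, 3.22 RPKM. RAN and ranbp1 stand furthest to the right, the outer ring genes other than SEC13 lie left of the dashed line, and nxf1a, listed at 0, is drawn as a cross.

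The Ran cycle held the highest levels. RAN (ENSDARG00000057026), the small GTPase itself, had 71.2 RPKM with a counting interval of 66.7 to 75.9, and ranked 361 of 33737 rows. Its partner ranbp1 (ENSDARG00000014817), which stimulates GTP hydrolysis together with RanGAP1, had 60.1 RPKM with an interval of 55.9 to 64.4. The ratio of RAN to ranbp1 was 1.19, with a counting interval of 1.08 to 1.31 for models of 1 kb. Together RAN and ranbp1 made up 30.4% of the summed RPKM of the 57 symbols. Both lay above the row named CPEB1, at 30.5 RPKM, which was taken as the transcript of the bait and may include the injected mRNA. RAN stood at 2.34 times that row (interval 2.08 to 2.63).

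The other Ran cycle genes were well below this pair. The RANGAP1 rows had 11.6 RPKM (ENSDARG00000056059) and 11.5 RPKM (ENSDARG00000041317), a ratio of 1.01 with a counting interval of 0.798 to 1.27. The RefSeq table gives rangap1 as a synonym of both rangap1a and rangap1b, and the rows were not assigned to either. RANBP3, a cofactor of export by exportin XPO1, had 10.1 RPKM, and ranbp3a had 2.76 RPKM. The 5 symbols of the Ran cycle had a median of 11.6 RPKM, the highest of the 12 roles, and 4 of them reached RPKM 10. Of the 52 symbols in other roles, 5 (9.62%) did so. That share was close to the background of 8.34% of all symbols and 9.38% of the protein-coding ones. At this cut the higher share of the whole group rested on the genes placed in the Ran cycle. The roles were chosen with earlier results of these data known. RANBP3, just over the cut, was placed in the Ran cycle although it is a cofactor of export. Several symbols of other roles lay just under the cut, among them NXT2 at 9.67 RPKM, KPNA3 at 9.14 RPKM and SEC13 at 8.89 RPKM. At RPKM 8.66 or more stood 26.3% of all members, the Ran cycle included. The background there was 9.74% of all symbols and 11.05% of the protein-coding ones. This cut was picked after the values were seen, and the share outside the Ran cycle was not computed there. At RPKM 5 or more stood 21 of all 57 members, of which only 4 were Ran cycle symbols. The background there was 17.0% of all symbols and 19.4% of the protein-coding ones. Members outside the Ran cycle were thus near the background at RPKM 10 but above it at RPKM 5.

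Import receptors of the importin beta family spanned 0.0488 to 24.3 RPKM. IPO5 (ENSDARG00000040245), an import receptor for ribosomal proteins and other cargo, had 24.3 RPKM with an interval of 21.7 to 27.2. IPO7, which carries ribosomal proteins and, as a dimer with importin beta, linker histone, had 21.7 RPKM. IPO13, which imports some cargo and exports other cargo, had 20.0 RPKM. These 3 genes were the next highest of the group after the Ran pair, and their counting intervals overlapped. IPO8, the close relative of IPO7, had 9.08 RPKM, so the IPO7 row stood at 2.39 times it, with a counting interval of 1.93 to 2.99.

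The transportins, which recognise signals other than the classical lysine-rich one, ran from the middle of the family to its low end. The row named tnpo2a had 8.22 RPKM and the row named TNPO2 had 6.46 RPKM. TNPO3, which imports serine- and arginine-rich splicing factors, had 4.44 RPKM, and TNPO1 had 1.85 RPKM. The lower end of the family held IPO9, a carrier of core histones, at 2.83 RPKM, ipo4 at 1.91 RPKM and IPO11 at 1.57 RPKM. The row ipo13a stood far below the rest at 0.0488 RPKM. Of the 12 import receptors 11 were detected, the median over all 12 was 5.45 RPKM, and 7 lay above the median of detected symbols, 3.22 RPKM. Of all symbols, 49.0% were detected and 24.9% stood at RPKM 3.16 or more. The protein-coding shares were 55.1% and 28.5%.

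The importin alpha adaptors, which link cargo with a classical nuclear localization signal to importin beta, spanned 0.612 to 11.0 RPKM, and their known subfamilies differed in how close their members lay. KPNA2 (ENSDARG00000038066) was the highest at 11.0 RPKM with an interval of 9.32 to 13.0. Its subfamily partner kpna7, known in mammals as an adaptor of oocytes and early embryos, had 0.612 RPKM. KPNA3 and KPNA4, which form another subfamily, had 9.14 and 9.02 RPKM. Their ratio was 1.01 with a counting interval of 0.782 to 1.32. The remaining subfamily lay lower, with KPNA1 at 3.44 RPKM, KPNA5 at 3.34 RPKM and KPNA6 at 1.95 RPKM. KPNA1 and KPNA5 had a ratio of 1.03 (interval 0.66 to 1.59), and KPNA5 stood at 1.71 times KPNA6 (interval 1.02 to 2.86). KPNA2 and kpna7 lay further apart, at a ratio of 18.0 with a counting interval of 8.96 to 42.8. The median over all 7 adaptors was 3.44 RPKM, and it was 6.23 RPKM over the 6 detected.

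Exportins lay in a narrow band, from 1.98 to 4.68 RPKM. The row named xpo1a had 4.68 RPKM and the row named XPO1 had 3.18 RPKM, where XPO1 (CRM1) is the general exportin for proteins with a leucine-rich export signal. XPO7 had 3.03 RPKM, XPO6, the exportin of actin and profilin, had 2.51 RPKM, and XPO4, known for exporting the translation factor eIF5A, had 1.98 RPKM. All 5 exportin symbols were detected, against 49.0% of all symbols and 55.1% of the protein-coding ones, and their median was 3.03 RPKM.

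Genes of bulk mRNA export were recovered as a receptor and a partner. The receptor row nxf1b (ENSDARG00000055076) had 6.99 RPKM with an interval of 5.63 to 8.58, and NXT2, whose product belongs to the small NXT proteins that pair with NXF1, had 9.67 RPKM with an interval of 8.06 to 11.5. The row nxf1a was listed at 0. Whether this 0 reflects a low level or a failed estimate was not determined, so no ratio is given.

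Nucleoporin transcripts were all detected, at lower levels than many transport factors. All 23 nucleoporin symbols reached RPKM 1, against 49.0% of all symbols and 55.1% of the protein-coding ones. Their median was 2.89 RPKM, with a range of 1.14 to 10.2 RPKM. For nup42, NUP133 and NUP43 the counting interval of a 1 kb model reached below RPKM 1, so their detection is not secure. The 32 transport factors had a median of 4.56 RPKM, of which 29 were detected. Intervals that spanned RPKM 1 were those of IPO11, called detected (0.963 to 2.4), and kpna7, called undetected (0.265 to 1.2). At RPKM 5 or more stood 5 nucleoporins (21.7%) and 15 transport factors (46.9%), against 17.0% of all symbols and 19.4% of the protein-coding ones. Among names that fit the rule, the nucleoporin share at that level was thus near the background. That share depends on the naming rule, since it leaves out pore genes the rule did not reach. Of these AHCTF1 had 6.13 RPKM, GLE1 5.68, pom121 5.02 and NDC1 2.56 RPKM, and counting them would raise the share. The distance between the medians depended on the filter, with transport factors at 2.24 times the nucleoporins over detected members, 1.58 times over all members and 1.16 times over members at RPKM 5 or more.

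In the outer ring, or Y complex, 6 of the 7 members lay close together and SEC13 stood above them. NUP160 had 3.05 RPKM, NUP107 2.32 RPKM, NUP37 2.28 RPKM, SEH1L 1.95 RPKM, NUP133 1.50 RPKM and NUP43 1.49 RPKM. These 6 subunits spanned 2.04-fold from the lowest to the highest and all lay below the median of detected symbols. SEC13 (ENSDARG00000054807) had 8.89 RPKM with an interval of 7.35 to 10.7, which did not overlap those of the other 6. AHCTF1, a pore gene outside the naming rule that was not placed by role, had 6.13 RPKM. Its interval, 4.87 to 7.63, overlapped that of SEC13 and lay above those of the other 6. The product of SEC13 is also a subunit of the COPII coat of secretory vesicles, and that of SEH1L also belongs to a complex that regulates the TOR pathway.

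The inner ring genes, which anchor the pore to the membrane and hold the channel, ranged from 2.37 to 5.41 RPKM. NUP205 (ENSDARG00000042530) was highest at 5.41 RPKM, followed by NUP35 at 4.33 RPKM, NUP155 at 3.22 RPKM, NUP93 at 2.89 RPKM and NUP188 at 2.37 RPKM. NUP205 and NUP188 encode related large scaffold proteins, and their counting intervals, 4.22 to 6.82 and 1.62 to 3.37, did not overlap. In the central channel, nup62l had 8.13 RPKM and NUP58 had 4.15 RPKM. The membrane nucleoporin NUP210 had 2.44 RPKM.

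Among the members placed on the cytoplasmic face, NUP98 (ENSDARG00000074955) was highest at 4.85 RPKM. In vertebrates this gene also encodes Nup96 of the outer ring, which is cut from the same precursor. The next was nup214 at 3.61 RPKM, and its partner NUP88 had 2.46 RPKM. RANBP2, the large filament protein that binds RanGAP1 modified with SUMO, had 2.12 RPKM, the mRNA export factor RAE1 had 2.06 RPKM, and nup42 had 1.14 RPKM with an interval of 0.638 to 1.88 that spans the detection level. On the nuclear side, the basket genes were higher. TPR (ENSDARG00000016630), the main filament of the basket, had 10.2 RPKM with an interval of 8.53 to 12.1 and was the highest nucleoporin. NUP50, a basket protein that helps release cargo from importin alpha, had 8.66 RPKM. Both basket intervals lay above those of all 6 members placed on the cytoplasmic face. GLE1, a pore gene outside the naming rule that was not placed by role, had 5.68 RPKM with an interval of 4.47 to 7.13. Rows for NUP85, NUP153, NUP54, KPNB1, KPNB3 and XPO5 were not matched by name and are not analysed here. The outer ring, basket, channel, importin beta and exportin roles are therefore described in part.

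RANBP9 and RANBP10 met the naming rule, but their products are known as subunits of a ubiquitin ligase and not as transport factors. They had 9.43 and 3.79 RPKM. Without them RAN and ranbp1 held 31.4% of the summed RPKM of the members.

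Zebrafish carry duplicates of several of these genes, and the duplicates differed in how their levels compared. The RANGAP1 rows, the tnpo2a and TNPO2 rows and the xpo1a and XPO1 rows were not separated by the counting error of 1 kb models. Longer models would narrow these intervals, so whether the true lengths separate them was not tested. The ratio of tnpo2a to TNPO2 was 1.27 with an interval of 0.947 to 1.71, and that of xpo1a to XPO1 was 1.47 with an interval of 0.982 to 2.24. RANBP3 stood at 3.65 times ranbp3a, with an interval of 2.52 to 5.46. IPO13 stood at 410 times ipo13a, with an interval of 46.8 to 10400. The value of ipo13a corresponds to about 0.640 reads per kilobase. For the interval it was rounded up to a whole read, so the interval does not belong exactly to the ratio of 410. For NXF1 the row nxf1b had 6.99 RPKM and nxf1a was listed at 0. The table does not say how reads that fit both copies were counted, so a low row and a row that lost shared reads cannot be told apart. The names in capitals were not assigned to a particular duplicate.

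**Figure D3:**
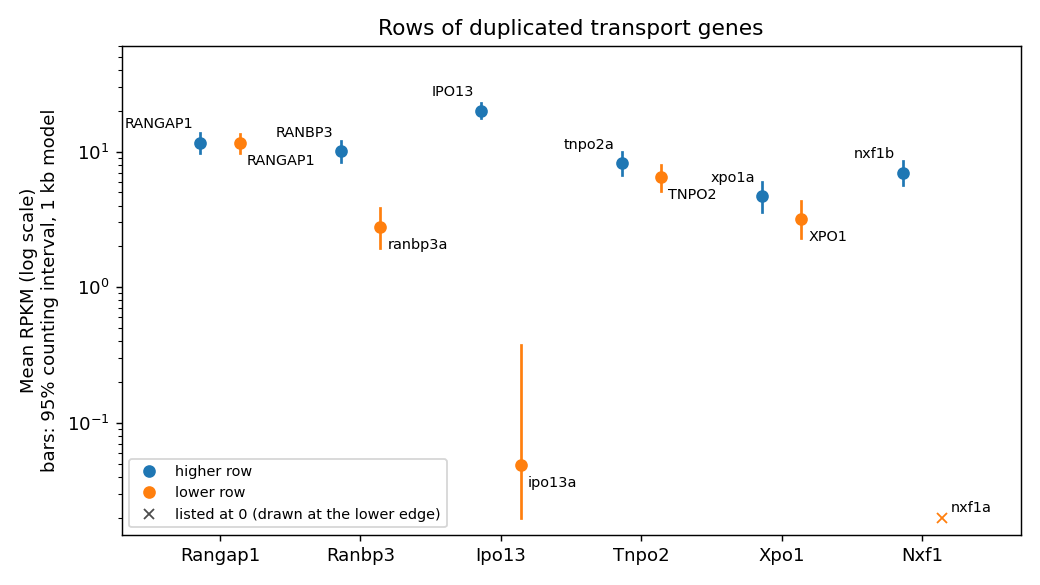
Mean RPKM (log scale) of the rows of 6 duplicated transport genes, with the higher row in blue, the lower row in orange and 95% counting intervals for a 1 kb model as bars, cut at the lower edge for ipo13a. The RANGAP1 rows lie level at 11.6 and 11.5 RPKM, IPO13 and ipo13a lie at 20.0 and 0.0488 RPKM, and nxf1a, listed at 0, is a cross.

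Other pore and transport genes, which the naming rule did not reach, lay between 2.31 and 9.98 RPKM. All 9 matched genes of a list of 18 names were detected, with a median of 5.21 RPKM and none at RPKM 10. The shares of all symbols were 49.0% detected and 8.34% at RPKM 10 or more. NUTF2, the import carrier of Ran itself, was highest at 9.98 RPKM, and SNUPN, the import adaptor of spliceosomal small nuclear ribonucleoproteins, had 6.57 RPKM. The lowest were NDC1, a membrane nucleoporin, at 2.56 RPKM and CSE1L, the exportin that returns importin alpha to the cytoplasm, at 2.31 RPKM. RCC1, the nuclear exchange factor that loads Ran with GTP, had 2.60 RPKM. Set beside the Ran cycle genes, the exchange factor was thus lower than RAN, ranbp1, both RANGAP1 rows and RANBP3. Its counting interval, 1.80 to 3.63, overlapped none of theirs. It did overlap that of ranbp3a, which had 2.76 RPKM with an interval of 1.94 to 3.82.

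Genes of the complexes that prepare mRNA for export lay between 1.24 and 60.9 RPKM. All 17 matched genes of a list of 24 names were detected, with a median of 7.99 RPKM, and 7 reached RPKM 10. Of all symbols 49.0% were detected and 8.34% reached RPKM 10, and of the protein-coding ones 55.1% and 9.38%. RBM8A, a core protein of the exon junction complex, was highest at 60.9 RPKM, and SARNP, an RNA-binding protein of the TREX complex, had 41.0 RPKM. Within the THO core the values ran from THOC7 at 27.0 RPKM and THOC2 at 25.8 RPKM down to THOC6 at 2.95 RPKM, and the export adaptor alyref had 24.1 RPKM. The lowest of the list were PCID2 at 2.05 RPKM and ddx39b, an RNA helicase of TREX, at 1.24 RPKM. Its relative DDX39A had 15.9 RPKM in the higher of its rows.

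**Figure D4:**
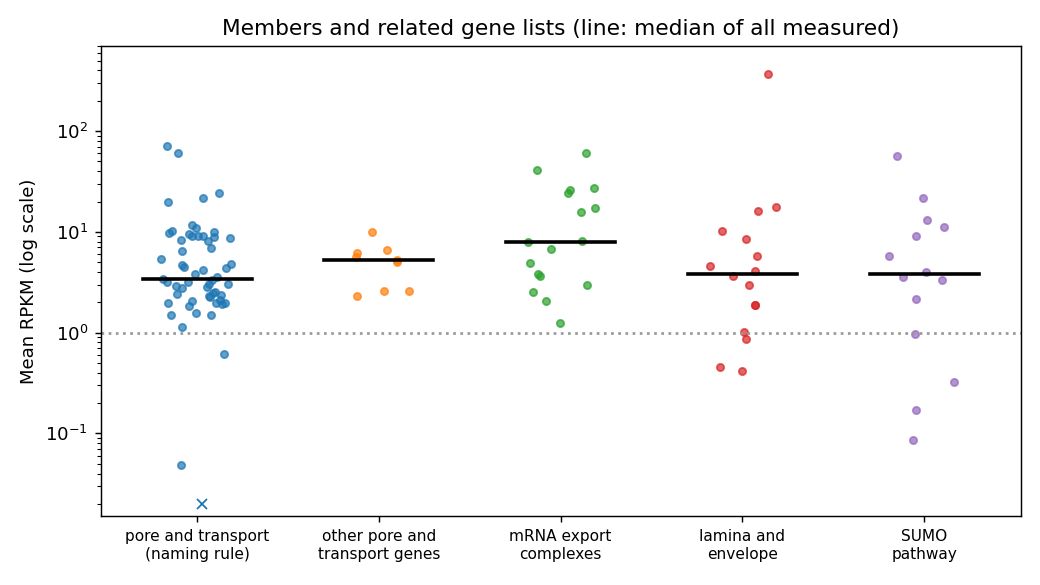
Mean RPKM (log scale) of each symbol among the 57 members and in 4 related lists, with a black line at the median of all measured symbols of each list and a dotted line at RPKM 1. The medians are 3.44 RPKM for the members, 5.21 for other pore and transport genes, 7.99 for mRNA export complexes, 3.85 for lamina and envelope genes and 3.80 for SUMO pathway genes, and a cross marks nxf1a, listed at 0.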

How the data were processed

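RNA bound to Flag-Cpeb1b was sequenced from zebrafish embryos in 2 replicates. The authors deposited 1 RPKM value per gene, whose table is named as a mean. Per the submitters' processing notes, the tools were TopHat2 2.1.1 and Bowtie, cutadapt 1.13 and Trimmomatic 0.36, FastQC, bedtools 2.16.2 and MACS2 2.0.10, with the Zv9 build. For their roles, the annotation, gene lengths, strand use and multiply aligned reads, nothing is stated in these sources.

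Symbols came from a table of gene names (21939 of 33737 rows), and the highest row stood for a symbol. RefSeq (GRCz12tu) was used for names and biotypes only, and 54 of the 57 members matched a protein-coding gene. Depth was read from 171 rows with repeated values between 0.4 and 2 RPKM, of which 135 (78.9%) fitted whole lengths at steps for 6576775 and 6551358 reads. The search was tested on simulated data. Ratio intervals are exact conditional binomial intervals on counts rounded to whole reads. No test was possible with 1 mean value per gene. Members, roles and lists were chosen with earlier results of these data known. All members at RPKM 10 or more or under RPKM 1 were named, as was the highest of each role, and for related lists the 2 highest and 2 lowest. Other list members, and the pairs set side by side, were picked after their values were seen. Python 3.11.15 with pandas 2.3.3, scipy 1.17.1 and matplotlib 3.10.9 was used. Some genes of the SUMO pathway list are not reported here.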

Additional observations from a re-analysis of the deposited data

How the results depend on the processing

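The count of detected members was 54 at RPKM 1, 55 at RPKM 0.1 and 55 with every row kept, but 21 at RPKM 5. The median of detected members was 3.70 RPKM and lay between 3.44 and 3.79 RPKM under the other settings, except at RPKM 5, where it was 9.43 RPKM because lower members leave. By role, medians at RPKM 5 were 8.89 RPKM (outer ring), 5.41 (inner ring), 8.13 (central channel), 9.14 (importin alpha), 14.5 (import receptors), 35.8 (Ran cycle) and 9.43 (RANBP9 and RANBP10), while cytoplasmic face, membrane and exportin genes had no member left. Without a filter only the importin alpha median, at 3.44 RPKM, left the counting interval of a single 1 kb gene at the reported median. That interval does not measure the spread of a median over genes. The share of the background detected was 49.0% over symbols, 38.6% over all rows and 55.1% over protein-coding symbols. The ratio of transport factor to nucleoporin medians, an alternative added after seeing the data, was 2.24, and 1.58 without a filter, 1.16 at RPKM 5 and 1.62 without RAN and ranbp1. A tolerance of 0.005 in the depth search left the depth at 13.1 reads per kilobase. No paired analysis was possible because both samples form a single group, and no replicate could be left out of a deposited mean. Single rows near RPKM 1 are limited by depth.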

Other observations

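Transcripts of the nuclear lamina and envelope, which the pore is embedded in, spread more widely than those of the pore. Of 16 matched genes of a list of 22 names, 13 were detected and 4 reached RPKM 10, against 49.0% and 8.34% of all symbols. The median of all 16 was 3.85 RPKM. BANF1, a small protein that bridges chromatin and the envelope, stood far above the list at 367 RPKM, about 4820 reads per kilobase. The lamin B receptor gene LBR had 17.8 RPKM and LMNB1 had 16.1 RPKM, while LMNA, the lamin of differentiated cells in mammals, had 3.64 RPKM. The lowest were sun1a at 0.456 RPKM and sun2 at 0.421 RPKM, both rows for proteins that link the envelope to the cytoskeleton. SUN1 had 5.73 RPKM.

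SUMO, the small modifier that tethers RanGAP1 to RANBP2 at the pore in vertebrate cells, was represented by modifier, activating enzyme and protease genes. Of 14 matched genes of a list of 25 names, 10 were detected, against 49.0% of all symbols and 55.1% of the protein-coding ones. The median over all 14 was 3.80 RPKM. The modifier genes sumo3b and sumo3a had 57.1 and 21.9 RPKM. The activating subunit SAE1 had 13.0 RPKM. Among the proteases, senp1 had 5.80, senp2 3.60 and senp3a 3.35 RPKM, while SENP8, which acts on the related modifier NEDD8, had 2.15 RPKM, and senp5, senp6b and senp3b lay under RPKM 1. The lowest rows of the list were senp3b at 0.171 RPKM and the ligase row pias4b at 0.0852 RPKM. These are levels in the precipitate of 1 group, with no test.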
